A study of Ovis aries with 6 samples.

Results

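ACACA, ACLY and OXCT1 encode enzymes that bring carbon into fatty acid synthesis. They were followed in cells shed into sheep milk, before and after a linseed supplement. The table of transcript levels held 49705 RefSeq transcripts, and every transcript carrying 1 of these symbols was taken, which gave 3, 1 for each gene: NM_001009256.1 for ACACA (9422 nt), NM_001038622.1 for ACLY (3306 nt) and XM_004017014.3 for OXCT1 (3413 nt). Other transcripts of these genes were not analysed here.

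The animals were 3 ewes of the Comisana breed, at day 90 of lactation at the start, each sampled under both diets. In the control group (3 libraries) they had grass hay and a commercial concentrate for 3 weeks. The linseed group (3 libraries) is these animals after 3 weeks on grass, hay and a concentrate of which extruded linseed made up 20% by dry matter. Each ewe received linseed second, so diet and time cannot be told apart, and the titles, read with the series design, are what places a library in its group. RNA came from the whole pellet of 250 ml of milk, a mixture of epithelial cells and leukocytes. In such bulk RNA, fewer cells of a type and less RNA per cell cannot be told apart.

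Fatty acids are built from acetyl-CoA in the cytosol. In ruminants most of that carbon reaches the udder as acetate and beta-hydroxybutyrate made from rumen fermentation, and less of it comes from glucose through citrate. OXCT1 transfers CoA to acetoacetate in mitochondria, the step by which cells outside the liver use ketone bodies. ACLY cleaves citrate in the cytosol to acetyl-CoA and oxaloacetate. ACACA, acetyl-CoA carboxylase 1, is a biotin enzyme that turns acetyl-CoA into malonyl-CoA, the committed step, after which fatty acid synthase extends the chain.

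Levels are RPKM, reads scaled to the length of the transcript and to the total of the library, so levels of different genes can be set side by side. Library totals solved from the RPKM steps were 4941935 to 22644050 reads, and the linseed library of sheep 1 was the shallowest. Milk protein genes, 8 matched of 9 in the list, took 35.9% and 47.8% of reads in the control libraries of sheep 2 and 1 and 4.4% in that of sheep 3, against 23.6%, 30.2% and 1.28% with linseed. Sheep 3 therefore stood apart under both diets, and results are also given without it. Tests covered the 15891 transcripts averaging 1 RPKM or more. Without the sheep as a block, limma called 0 higher and 0 lower with linseed at an adjusted p under 0.05 (0% each way). In that fit 1351 higher (8.5%) and 1113 lower (7%) had an unadjusted p under 0.05. Limma-voom on the recovered reads, without the block, also called 0. With the block, which pairs the libraries of an ewe, limma called 203 higher (1.28%) and 213 lower (1.34%). Results below are without the block unless it is named. The median log2 change of all tested transcripts was -0.12.

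OXCT1 was lower with linseed in each ewe. Its level was 5.40, 7.75 and 14.3 RPKM in control sheep 1, 2 and 3 and 0.237, 1.52 and 4.02 RPKM with linseed. The groups did not overlap: the highest linseed library lay under the lowest control library. Of all tested transcripts, 7.83% showed this ordering and 26.2% were lower in each of the 3 sheep. The means were 9.16 ± 4.64 RPKM in controls and 1.92 ± 1.92 RPKM with linseed (SD, n = 3 each). The fitted difference of log2(RPKM + 1) was -1.93 ± 0.675 (SE), with an adjusted p of 0.266 in limma over all transcripts, and 0.0528 with the sheep as a block. Neither passed, while 1.34% of all tested transcripts passed as lower with the block and 1.28% as higher. Sheep 3 had the highest level under each diet, and without its libraries the change was -2.08 ± 0.559 (adjusted p = 0.0922 in limma).

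The reads behind OXCT1 were uneven. The control libraries held 417, 233 and 519 reads in the order of sheep 1, 2 and 3, and the linseed libraries held 4, 31 and 273. The control level was 22.8 times the linseed level in sheep 1 (95% exact counting interval 8.82 to 83.9), 5.10 times in sheep 2 (3.50 to 7.68) and 3.57 times in sheep 3 (3.08 to 4.15). The intervals cover counting error only, with reads taken as independent, and all 3 lay above 1. Without the linseed library of sheep 1, which held only 4 reads, the change was -1.42 ± 0.732.

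ACLY was also lower with linseed in each ewe, by no more than counting error in sheep 2. Its level was 5.05, 2.40 and 15.6 RPKM in control sheep 1, 2 and 3 and 0.122, 1.67 and 2.72 RPKM with linseed. Control sheep 3 was the highest library, and linseed sheep 3 lay above control sheep 2, so the groups overlapped. The means were 7.68 ± 6.97 and 1.5 ± 1.31 RPKM (SD, n = 3 each). The fitted log2 difference was -1.65 ± 0.727 (SE), with an adjusted p of 0.313 in limma, and 0.0853 with the sheep as a block.

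Reads of ACLY numbered 378, 70 and 546 in the control libraries of sheep 1, 2 and 3 and 2, 33 and 179 with linseed. In sheep 1 the control level was 41.2 times the linseed level, with a counting interval of 11.3 to 342 because the linseed value rests on 2 reads. In sheep 3 it was 5.73 times (4.83 to 6.82). In sheep 2 it was 1.44 times, and the interval of 0.939 to 2.25 includes no difference. The mean change leaned on control sheep 3, without which it was -1.02 ± 0.653. Without sheep 3 under both diets it was -1.39 ± 0.591, and without the linseed library of sheep 1 -1.15 ± 0.806.

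ACACA was higher with linseed in sheep 1 and 2 and lower in sheep 3. Its level was 2.13, 1.80 and 3.41 RPKM in control sheep 1, 2 and 3 and 5.80, 5.47 and 2.16 RPKM with linseed. The linseed libraries of sheep 1 and 2 were the highest of the 6, that of sheep 3 lay among the controls, and the groups overlapped. The linseed level was 2.72 times the control level in sheep 1 (95% exact counting interval 2.33 to 3.17), 3.04 times in sheep 2 (2.5 to 3.73) and 0.632 times in sheep 3 (0.546 to 0.733). With 149 to 455 reads in each library and reads taken as independent, the 3 intervals exclude 1, so the ewes differed by more than this counting error. Of all tested transcripts, 14.7% were higher in sheep 1 and 2 and lower in sheep 3.

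The means of ACACA were 2.45 ± 0.853 RPKM in controls and 4.48 ± 2.01 RPKM with linseed (SD, n = 3 each). The fitted log2 difference was 0.615 ± 0.581 (SE), with an adjusted p of 0.605 in limma, or 0.462 in the blocked fit. The change was 0.972 ± 0.577 without the linseed library of sheep 3, 1.16 ± 0.491 without both libraries of that ewe, and 0.364 ± 0.863 without those of sheep 1, or 0.318 ± 1.09 without those of sheep 2. None of these passed: the adjusted p was 0.321, 0.169, 0.95 and 0.961 in limma.

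**Figure D1:**
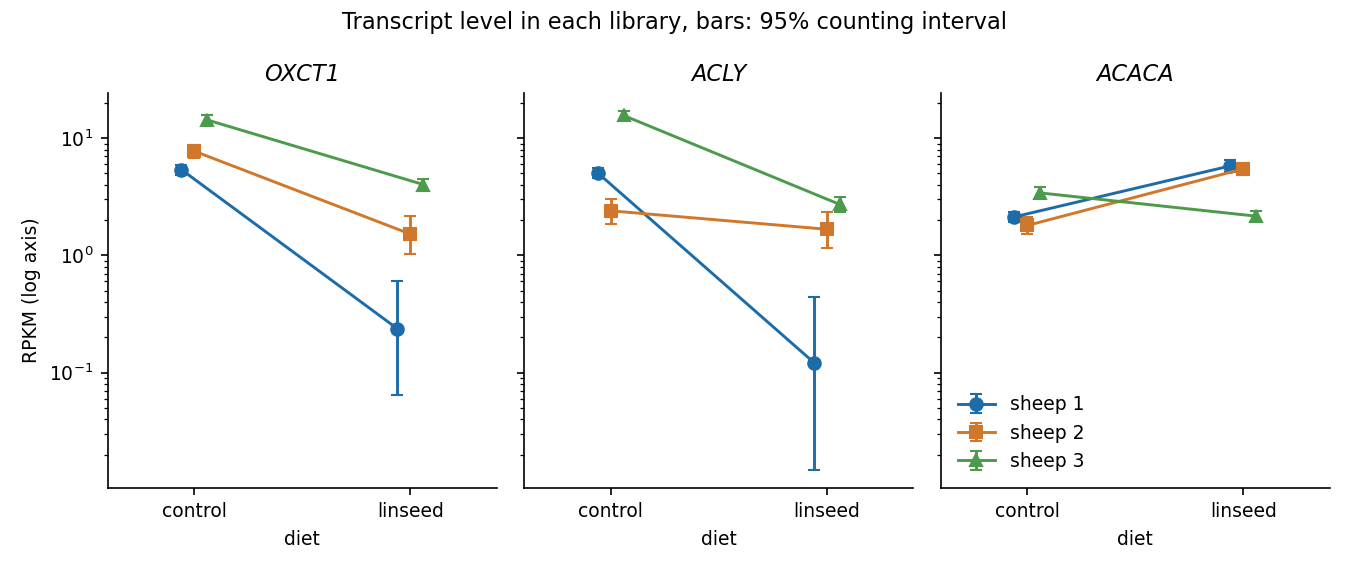
Level of OXCT1, ACLY and ACACA (RPKM, log axis) in each library, with the control and linseed libraries of each sheep joined by a line and bars for the 95% counting interval (control n = 3, linseed n = 3). OXCT1 and ACLY were lower with linseed in each sheep, down to 0.237 and 0.122 RPKM in sheep 1, while ACACA was higher in sheep 1 and 2 and lower in sheep 3.

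Set side by side, the order of the 3 genes differed between libraries. ACACA had the lowest level of the 3 in each control library, at 0.422, 0.747 and 0.219 times ACLY in sheep 1, 2 and 3 and at 0.395, 0.232 and 0.238 times OXCT1. With linseed it had the highest level in sheep 1 and 2, at 47.4 and 3.27 times ACLY, the first resting on 2 reads of ACLY. In linseed sheep 3 it was again the lowest, at 0.794 times ACLY and 0.537 times OXCT1. OXCT1 and ACLY themselves stood close to each other in control sheep 1 and 3, where OXCT1 had 1.07 and 0.921 times the level of ACLY, and apart in control sheep 2, at 3.22 times. These ratios were not tested.

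Most of the other genes that supply acetyl-CoA had lower mean levels with linseed, without passing the test. Of 19 genes in this list, 13 were matched and 12 tested, and 0 passed limma in either direction, also with the sheep as a block. Of the 12, 7 were lower and 1 was higher in each of the 3 sheep, beside 26.2% and 23% of all tested transcripts. ACSS2 is counted among the 7 by its most abundant transcript. The median log2 change of the 12 was -0.66, beside -0.12 for all tested transcripts. By ewe the median was -0.84, -0.74 and -0.07 in sheep 1, 2 and 3, beside 0.02, 0.03 and -0.22. In sheep 3 the list therefore did not lie below all tested transcripts. PDHA1, a subunit of pyruvate dehydrogenase, had 10.3, 8.65 and 20.6 RPKM in control sheep 1, 2 and 3 and 0.653, 2.70 and 4.76 RPKM with linseed. Its linseed libraries all lay below its control libraries, as for 7.83% of all tested transcripts. Its log2 change was -2.02 ± 0.661 (SE), and its adjusted p was 0.263 in limma, or 0.0529 with the block. DLD, the dihydrolipoyl dehydrogenase of the same complex, had a change of -1.71 ± 0.745, but of only -0.067 in sheep 3. SLC16A1, a carrier of lactate, pyruvate and ketone bodies, had -1.09 ± 0.644, though it was not lower in sheep 3. BSG, a partner protein of such carriers, was the 1 gene higher in each sheep, at 1.20 ± 0.567, or 0.67 after quantile normalization. The change of SLC16A1 was -0.614 after a correction for transcript length.

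Acetate is activated in the cytosol by ACSS2. Its most abundant transcript, XM_004014513.3, had 54.6, 26.7 and 19.2 RPKM in control sheep 1, 2 and 3 and 39.0, 7.49 and 18.1 RPKM with linseed, above ACLY in each of the 6 libraries. Its log2 change was -0.753 ± 0.719, within about 1 SE of 0. A second tested transcript of this gene, XM_004014514.3, had 9.77, 10.1 and 9.13 RPKM in controls and 57.7, 38.5 and 4.52 RPKM with linseed, higher in sheep 1 and 2 and lower in sheep 3 as ACACA was. Reads that these transcripts share depend on how the authors divided them, so the gene has no single direction here.

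Among the genes that make or use ketone bodies, 4 of 9 were tested, OXCT1 included, and 0 passed. AACS, which activates acetoacetate in the cytosol, had -0.836 ± 0.591. This change lay mostly in sheep 1, with 4.35 RPKM in the control library and 0 with linseed. In sheep 2 and 3 AACS changed by -0.158 and 0.0701. BDH2 had 0.275 ± 0.539, whose sign turned under the length correction (-0.0681). BDH1, the dehydrogenase that converts beta-hydroxybutyrate to acetoacetate ahead of OXCT1, had under 1 RPKM in 5 of the 6 libraries and 1.78 RPKM in linseed sheep 2, and was not tested. ACAT1 was not analysed here, nor was the citrate carrier gene SLC25A1.

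The list for malonyl-CoA and chain building held 23 genes, of which 14 were matched and 11 tested. None passed, and 3 were higher and 2 lower in each sheep, beside 23% and 26.2% of all tested transcripts. The median change was 0.12, which turned to -0.06 when milk proteins were taken out of the library totals. ELOVL6, which lengthens palmitate, had 7.79, 1.69 and 0.902 RPKM in control sheep 1, 2 and 3 and 0.412, 0.408 and 0.705 RPKM with linseed, with a change of -1.24 ± 0.614, or -0.82 after the correction for length. MLYCD, which breaks down the malonyl-CoA that ACACA makes, was higher in each sheep, at 0.697 ± 0.571. MECR of mitochondrial fatty acid synthesis had 0.806 ± 0.503, or 0.486 after that correction, and HSD17B12 of chain elongation -1.15 ± 0.748. Fatty acid synthase and the second carboxylase gene, ACACB, were not analysed here.

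NADPH, the reductant of fatty acid synthesis, is made by the pentose phosphate pathway and, in ruminant udder, largely by IDH1. Of 8 genes, 6 were tested and 0 passed. The median change was 0.93, or 0.52 after quantile normalization, and 3 genes were higher and 0 lower in each sheep, beside 23% and 26.2% of all tested transcripts. PGLS, which hydrolyses the lactone in the pathway's oxidative branch, had 4.32, 10.7 and 6.96 RPKM in controls and 35.0, 34.3 and 22.9 RPKM with linseed, and a change of 1.98 ± 0.593 (adjusted p = 0.263 in limma). TKT, a transketolase, had 1.13 ± 0.563, or 0.603 after quantile normalization. Both had each linseed library above each control library, as 13.3% of all tested transcripts did. PGD had 0.733 ± 0.667, or 0.0914 after that normalization, and IDH1 -0.129 ± 0.63, or -0.369 with milk proteins taken out of the totals.

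**Figure D2:**
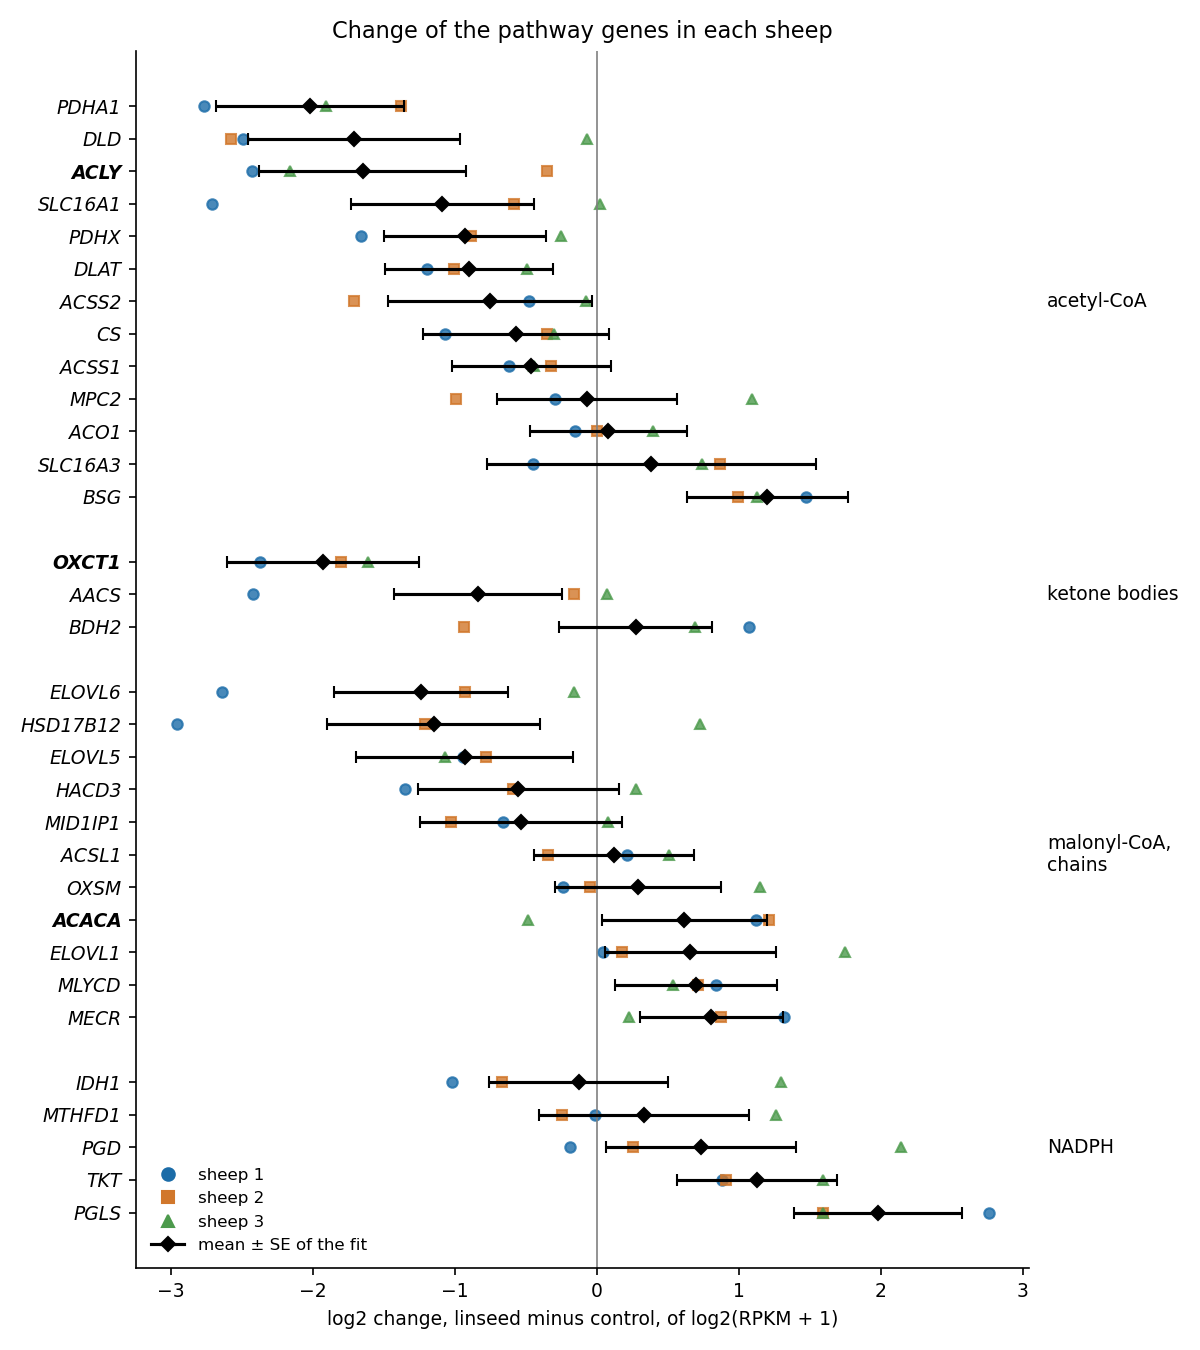
Log2 change of log2(RPKM + 1), linseed minus control, for genes of 4 pathway lists that passed the filter on low levels, with ACLY added to the acetyl-CoA group: points are the 3 sheep and diamonds the fitted mean ± SE. OXCT1, ACLY and PDHA1 lie left of 0 in each sheep, PGLS and TKT right of 0, and ACACA on both sides.

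Biotin also serves carboxylases of the mitochondria. Of the list of 9 biotin enzymes and their ligase, 4 were tested, ACACA included, and 0 passed. PCCA is the biotin-bearing subunit of propionyl-CoA carboxylase, and MCCC2 the subunit of methylcrotonyl-CoA carboxylase without biotin. Their changes were -0.72 ± 0.584 and -0.718 ± 0.486, or -0.396 and -0.341 after the correction for length. These 2 were lower and 0 were higher in each sheep, beside 26.2% and 23% of all tested transcripts. In sheep 2 the change of MCCC2 was only -0.0217. MCCC2 passed the filter on low levels through the controls, with a mean of 1.63 RPKM against 0.565 RPKM with linseed. PCCB, the other subunit for propionyl-CoA, had 0.129 ± 0.698, or -0.0885 when milk proteins were taken out of the library totals. The biotin ligase gene HLCS had 0.0704 to 0.495 RPKM over the libraries and was not tested.

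Of 24 regulators of lipogenesis 10 were tested and 0 passed. Of the 10, 4 were higher and 3 lower in each sheep, beside 23% and 26.2% of all tested transcripts. Their median change was -0.09. NR1H3, the liver X receptor alpha gene that drives lipogenic transcription, had 0, 0.258 and 0.214 RPKM in controls and 1.61, 2.09 and 1.97 RPKM with linseed, a change of 1.32 ± 0.431 (adjusted p = 0.263 in limma). These values rest on 0, 4 and 4 reads in controls and 14, 22 and 69 with linseed. NR1H3 passed the filter on low levels only through the linseed libraries, where its mean was 1.89 RPKM against 0.157 RPKM in controls. PRKAA1, a catalytic subunit of the AMP-activated kinase that inhibits ACACA, had -0.641 ± 0.494, or -0.257 after the correction for length. NR1H2 had 0.735 ± 0.627, or 0.453 after quantile normalization. INSIG1, which holds SREBP factors in the endoplasmic reticulum, had -0.728 ± 0.696, or -1.12 after quantile normalization, with 173 RPKM in control sheep 1 and 32.2 to 46.5 RPKM in the other 5 libraries. SREBF1 was not analysed here.

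Long transcripts had lower median changes with linseed than short ones, so the 3 genes were set beside transcripts of their own length. The 533 tested transcripts of at least 8000 nt had a median log2 change of -0.59, and 4.32% of them had a higher change than ACACA. Their medians were -0.41, -0.05 and -1.13 in sheep 1, 2 and 3, beside 1.12, 1.21 and -0.483 for ACACA, which stood above its length class in each sheep. After a correction for length the change of ACACA was 1.18 ± 0.592 (adjusted p = 0.3 in limma), or an adjusted p of 0.153 with the sheep as a block as well. The 2101 transcripts from 3000 nt to under 4000 nt had a median of -0.34, and 6.52% of them had a lower change than ACLY and 3.14% a lower change than OXCT1. After the correction ACLY had -1.38 ± 0.515 and OXCT1 -1.65 ± 0.454, with adjusted p of 0.21 and 0.183 in limma.

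**Figure D3:**
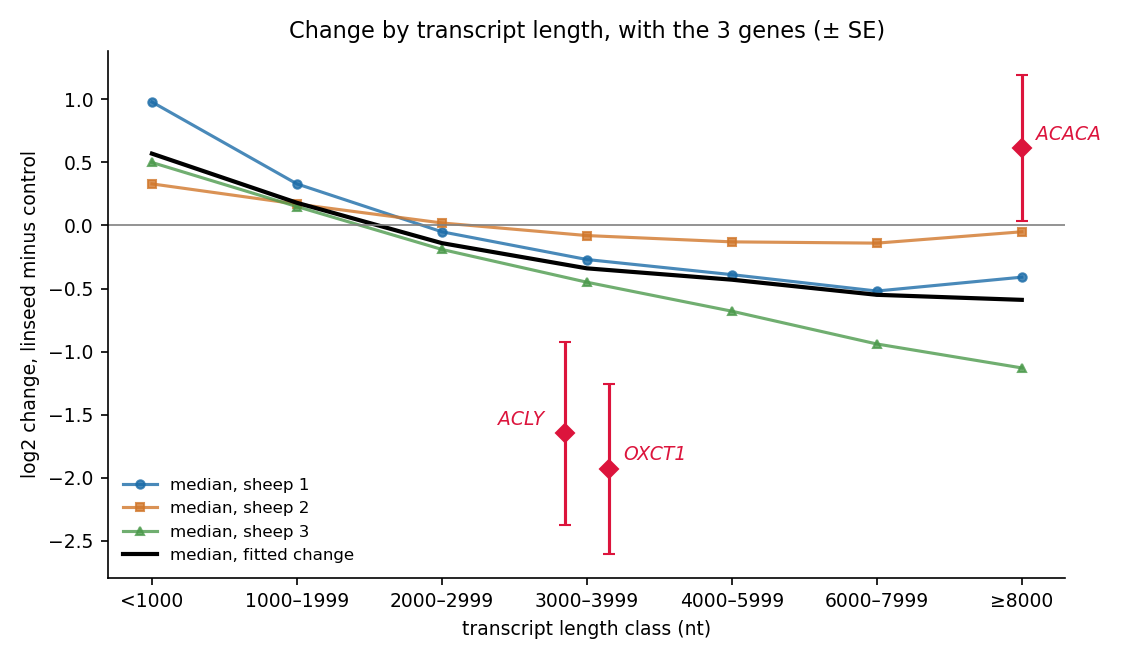
Median log2 change, linseed minus control, of all tested transcripts in 7 classes of transcript length (nt), for each sheep and for the fitted change, with ACACA, ACLY and OXCT1 as diamonds ± SE. Medians fall from 0.57 below 1000 nt to -0.59 at 8000 nt and above, ACACA lies above its class and ACLY and OXCT1 below theirs.

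Epithelial markers differed among themselves in which of the 3 genes they resembled. Of 11 luminal epithelial markers 6 were tested, and their summed level was 424 to 731 RPKM in controls and 90.0 to 1201 RPKM with linseed, lowest in linseed sheep 3. KRT8, a luminal keratin, had 17.6, 98.6 and 54.5 RPKM in control sheep 1, 2 and 3 and 355, 500 and 21.3 RPKM with linseed, and CLDN3, a tight junction protein, had 168, 87.9 and 20.5 RPKM and then 283, 507 and 7.30 RPKM. Both were highest in linseed sheep 1 and 2, the libraries in which ACACA was highest, as was PAEP, the most abundant milk protein gene here (268127 and 140693 RPKM). Of 8 milk protein genes tested, however, 5 were lower and 0 higher in each sheep, beside 26.2% and 23% of all tested transcripts. CSN3, the second most abundant, had 142947, 97147 and 8902 RPKM in control sheep 1, 2 and 3. With linseed it had 37798, 36524 and 2034 RPKM. CD24, a surface protein of epithelial cells and some leukocytes, had 265, 133 and 287 RPKM in controls and 29.6, 38.5 and 51.7 RPKM with linseed, the direction of OXCT1 and ACLY, with a log2 change of -2.44 ± 0.607 that passed with the sheep as a block (adjusted p = 0.0461 in limma) and missed without it (0.263). EPCAM, the epithelial adhesion molecule, was highest in control sheep 1 and 2, at 214 and 90.9 RPKM, and had 4.37 RPKM in linseed sheep 3. Over the 6 libraries, which come from 3 animals, the level of ACACA correlated with KRT8 at r = 0.82 and with EPCAM at -0.13. OXCT1 correlated with CD24 at 0.88 and with EPCAM at 0.06. KRT8 and CD24 had the highest values of the 6 markers for ACACA and OXCT1 respectively. The other markers ranged from -0.6 (CD24) to 0.56 (CLDN3) with ACACA. With OXCT1 they ranged from -0.64 (KRT8) to 0.06 (EPCAM). The part of epithelial cell content in the changes was not tested.

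**Figure D4:**
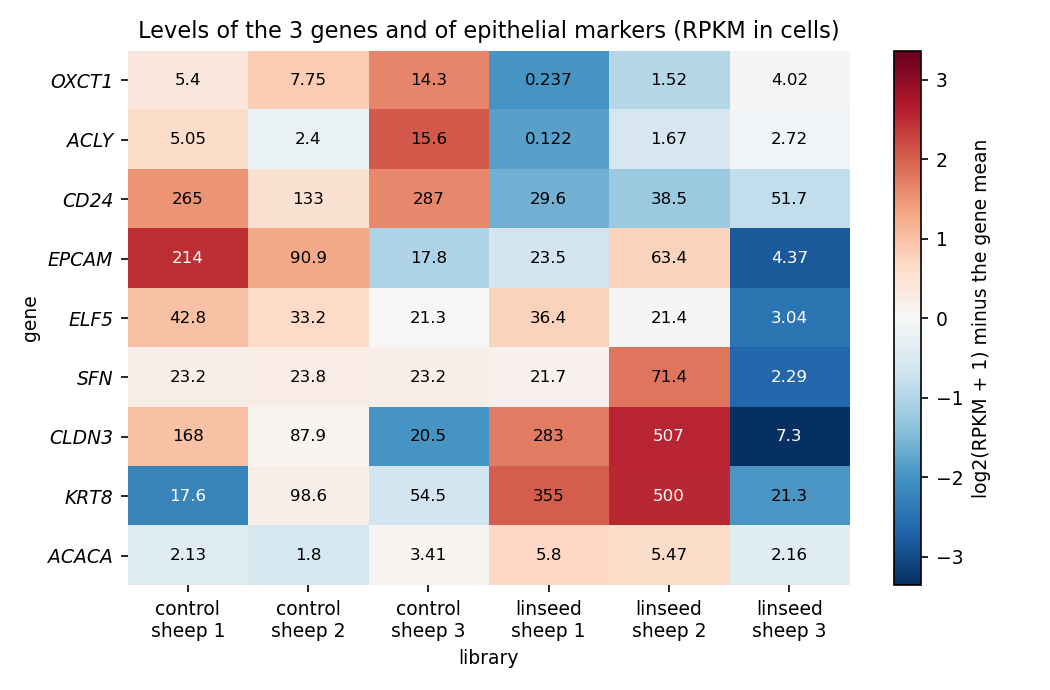
RPKM of the 3 genes and of 6 luminal epithelial markers in each of the 6 libraries (numbers in the cells), coloured by log2(RPKM + 1) minus the mean of the gene. ACACA, KRT8 and CLDN3 are high in linseed sheep 1 and 2, and OXCT1, ACLY and CD24 are low there.

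Of the leukocyte lists, the summed levels of macrophage and neutrophil markers did not overlap between the diets and those of T, NK, B and plasma cells did, with 0 markers past the threshold in limma without the block. The summed level of 7 macrophage markers matched of 11 was 92.1 to 557 RPKM in controls and 776 to 1380 RPKM with linseed, led by CD68 and TREM2. CD68 itself overlapped between the diets, at 376 RPKM in control sheep 2 and 368 RPKM in linseed sheep 1. Of the 6 macrophage markers tested, 3 were higher and 1 lower in each sheep, beside 23% and 26.2% of all tested transcripts. For 2 of the 6 each linseed library lay above each control library, as for 13.3% of all tested transcripts. TREM2, a lipid receptor, had 6.75, 83.0 and 13.5 RPKM in controls and 304, 258 and 277 RPKM with linseed, and passed with the block alone (adjusted p = 0.0401 in limma). Neutrophil markers, 5 of 8, summed to 819 to 1566 and 2148 to 3447 RPKM, with S100A9 and S100A8 the most abundant on average. Of these 5, 4 were higher and 0 lower in each sheep, and the groups did not overlap for 2, S100A8 and S100A9. The control sum of 1566 RPKM was that of sheep 1, where LTF, the lactoferrin gene that epithelium expresses as well, had 1146 RPKM, and LTF was lower with linseed in sheep 1 and 3. T and NK cell markers, 6 of 9, summed to 7.09 to 492 and 56.0 to 119 RPKM, led by CD3E and CD247, and those of B and plasma cells, 6 of 6, to 1.18 to 25.8 and 6.49 to 25.9 RPKM, led by JCHAIN and CD79A. The 1 erythrocyte gene matched of 4, ALAS2, was at 0 in each library. Within these lists the mannose receptor gene MRC1 had 2.77, 7.36 and 12.4 RPKM in controls and 0, 1.23 and 5.73 RPKM with linseed, and correlated with OXCT1 at 0.96. CD247 correlated with OXCT1 at 0.87. These were the highest values of their lists. The other macrophage markers correlated with OXCT1 at -0.71 (TREM2) to 0.64 (MSR1), and the other T and NK cell markers at 0.18 (CD2) to 0.68 (CD3D). The part of leukocyte content in the changes was not tested.

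By pattern over the 6 libraries, ACLY and OXCT1 resembled each other and ACACA resembled neither. The Pearson correlation of log2(RPKM + 1) was 0.91 between ACLY and OXCT1 (Spearman 0.83), -0.43 between ACACA and ACLY (-0.49) and -0.70 between ACACA and OXCT1 (-0.66). Among 5975 other genes, OXCT1 ranked 485 in likeness to ACLY. The 5 genes most like ACLY were METTL16 (r = 0.999), UBQLN2, UBXN2B, SLC25A46 and GLCE (0.990). Those most like OXCT1 were LOC101116687 (0.996), TAF1B, PIK3C3, HSPA13 and DDX5 (0.988). Those most like ACACA were AK8 (0.987), SIGIRR, CITED4, ERI3 and SIX5 (0.967). METTL16 had 2.64, 1.19 and 6.63 RPKM in controls and 0, 0.877 and 1.55 RPKM with linseed, and AK8 had 0.694, 0.357 and 1.66 RPKM and then 4.20, 5.05 and 0.916 RPKM. With 6 libraries and this many genes, high values of r are found for many genes, and these are descriptions of the libraries.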

How the data were processed

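RNA of milk somatic cells was sequenced in 6 libraries, 3 a diet. The authors deposited RPKM values for 49705 RefSeq transcripts, with decimal commas. Trimmomatic 0.33 is the tool named per the submitters' processing notes. The aligner, genome build and read counter were not given in the sources used here. Symbols came from the RefSeq gene table of ARS-UI_Ramb_v3.0, used for names alone: 15836 transcripts matched with the version ignored.

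Totals, lengths and whole reads were solved from the RPKM steps (tolerance 0.002 reads, at least 99.44% of each total recovered), a procedure tested on simulated data. Transcripts averaging 1 RPKM or more were tested as log2(RPKM + 1), which understates changes of low transcripts, with limma 3.58.1 in R 4.3.3 (mean-variance trend, Benjamini-Hochberg adjustment over all 15891, threshold 0.05). The counting intervals are exact 95% intervals from scipy 1.17.1 and take each read as independent. In control sheep 2 and linseed sheep 1 and 2, more transcripts held 2 reads than 1 (ratios of 1.09, 1.49 and 1.18). Reads may therefore not be independent, and the intervals may be too narrow. Lists took the most abundant transcript of a gene. The filter takes the mean of both groups, so a gene averaging under 1 RPKM in 1 group could pass through the other. Of the named pathway genes, NR1H3 and MECR passed through the linseed libraries, and ELOVL6, MCCC2 and PRKAA1 through the controls.

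The libraries of a number come from the same ewe by the sheep identifiers in the labels, and deviations from group means correlated at 0.18, 0.25 and 0.40 within sheep 1, 2 and 3, beside 0.24 between control sheep 1 and linseed sheep 2. The fit without the sheep as a block is the one reported, although each ewe gave a library under both diets. Blocked values are given for the 3 genes and for PDHA1, CD24 and TREM2. Alternatives covered the block, pseudocount, filter, scaling, length, voom and leaving out libraries.

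The members and lists were chosen with earlier results of these data known. Named genes were, per pathway list, the 4 of smallest p and a fixed set, per cell type list the 2 most abundant, and the 5 nearest by correlation. CD24, EPCAM, LTF, MRC1, CD247 and the second ACSS2 transcript were named after their values were seen. Some genes of the lists are counted but not reported here by name or plotted.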

Additional observations from a re-analysis of the deposited data

How the results depend on the processing

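With the sheep as a block, which pairs the libraries of an ewe, limma called 203 transcripts higher and 213 lower, against 0 and 0 without it, and none of the 3 genes was among them. The same fit without sheep 1, chosen after seeing the data, called 107 higher and 145 lower. Each other setting called 0, leaving out a library or a sheep included. Each of the 3 genes kept its direction and stayed short of the threshold in every setting run: the log2 change ranged from 0.318 to 1.18 for ACACA, from -2.5 to -1.02 for ACLY and from -2.71 to -1.42 for OXCT1. A filter at a mean of 5 RPKM removed ACACA and ACLY and gave no value for them. The lowest change of ACLY came with a pseudocount of 0.1 RPKM. When milk protein reads were taken out of the totals, the median of all tested transcripts moved from -0.12 to -0.28, and ACACA, ACLY and OXCT1 had 0.485, -1.99 and -2.29. Linseed sheep 1 held only 2 and 4 reads of ACLY and OXCT1, which limits what can be said of their levels there. Of 6 further tested transcripts of the pathway genes, 4 had the opposite sign to the most abundant one.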
